A study of Mus musculus with 31 samples.

Results

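The genes examined were 10 neighbours on distal mouse chromosome 5, in chromosomal order Snx8, Eif3b, Lfng, Ttyh3, Iqce, Brat1, Amz1, Gna12, Wipi2 and Slc29a4. They are 10 of the 15034 genes of the RNA-seq table, and 16 genes of that table are reported from the outermost of them to the other, these included. They were chosen by their measured levels in the RNA-seq, most of them being lower in mouse embryonic stem cells (mESCs) with both an Ago2 deletion and a CLIP-site deletion than with the Ago2 deletion alone, so that difference is given as a description, without a test. Of the 10 genes, 8 were lower by about 1 log2 unit in these cells, and the 2 most proximal, Snx8 and Eif3b, were not.

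The cells are mESCs of the ES-E14TG2a background in which both copies of Trim71 carry a FLAG tag, a knock-in that all groups share and that the study treats as wild type. For the expression profiles they were grown in the 2i + Lif medium. RNA-seq covered 12 libraries, of which 2 were wild type (WT), 2 lacked the Trim71-binding region in the 3' untranslated region of Ago2 mRNA (CLIPΔ), 4 carried a deletion of Ago2 itself (Ago2 KO) and 4 carried both deletions (Ago2 KO/CLIPΔ). Trim71 is an RNA-binding protein of stem cells that represses its target mRNAs, and Ago2 is the Argonaute protein that carries miRNAs to their targets. The study asked whether the loss of Trim71 binding acts through Ago2. The labels do not say which clone each library came from, so a difference carried by a clone and one brought by a deletion cannot be told apart. The p-values measure the spread between these libraries, which the labels call biological replicates.

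Genes that sit next to each other need not work together. The 10 genes serve unrelated tasks in the cell, from translation and autophagy to Notch and G-protein signalling, and what they share is their place on the chromosome. RNA-seq of bulk cells gives the RNA of both copies of a chromosome together, and fewer cells that express a gene cannot be told apart from less RNA per cell. DNA copy number was not analysed here.

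The genotypes rest on pairs of CRISPR guides, which are shown because they define the groups compared. The guides are written 5' to 3' without the PAM, and each matched mouse chromosome 15 exactly (GRCm38, next to an NGG PAM).
CLIPΔ guide 1: cctcacacccacccgcttgc
CLIPΔ guide 2: tctttctatcaagcgccgct
Ago2 KO guide 1: ggggttccaataccagcggt
Ago2 KO guide 2: gatccttggttacccgatcc
CLIPΔ guide 1 lies at chr15:73103583-73103602 on the minus strand and guide 2 at chr15:73103464-73103483 on the plus strand, both in the untranslated region of Ago2. The Ago2 KO guides lie at chr15:73123243-73123262 (minus strand) and chr15:73124083-73124102 (plus strand), both in introns of Ago2. Within the chromosome 5 stretch from Lfng to Slc29a4, 0 sites next to an NGG PAM matched any of the 4 guides with up to 4 mismatches. Over the whole of chromosome 5 such sites numbered 16 and 2 for the CLIPΔ guides and 2 and 3 for the Ago2 KO guides. Sites beside the stretch were not counted apart from these, and whether any site was cut was not tested.

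Values are TPM, the deposited transcript level scaled to gene length and to the library total. Ago2 was at 21.6 and 28.2 TPM in WT, 20.3 and 27.3 TPM in CLIPΔ, 1.67 to 2.29 TPM in Ago2 KO and 1.51 to 2.87 TPM in Ago2 KO/CLIPΔ, so the deposited values go with the Ago2 labels. CLIPΔ could not be checked in this way, since a value per gene does not show a deletion within its untranslated region. Trim71 was at 22.5 to 28.5 TPM in Ago2 KO and 23.3 to 27.3 TPM in Ago2 KO/CLIPΔ. The stem cell genes Pou5f1 (2313 to 3262 TPM) and Nanog (581 to 1204 TPM) were high in all 12 libraries. The 6 endoderm markers summed to 3.29 to 3.61 TPM in Ago2 KO/CLIPΔ and 4.53 to 5.43 TPM in Ago2 KO, and the 2 neuroectoderm markers in the table to 29.1 to 40.8 and 26.4 to 29.6 TPM. Their part in the results was not tested. Across the genes fitted, WT replicate 1 correlated more closely with CLIPΔ replicate 1 (r = 0.985) than with the other WT library (r = 0.977), and WT replicate 2 with CLIPΔ replicate 2 (r = 0.988), while r across genes was 0.990 to 0.999 within the 2 Ago2 KO groups. TPM keeps no read number, so the depth behind each value is unknown.

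Ttyh3, a membrane protein of the Tweety family, was at 23.8, 23.01, 23.06 and 23.09 TPM in Ago2 KO and at 10.7, 10.6, 9.98 and 8.75 TPM in Ago2 KO/CLIPΔ. The groups were far apart, and the mean with both deletions was 43.1% of that with the Ago2 deletion alone. Brat1, a partner of BRCA1 and of the DNA damage kinase ATM, was at 36.0, 34.2, 34.4 and 32.6 TPM in Ago2 KO and at 18.1, 18.2, 15.2 and 14.8 TPM in Ago2 KO/CLIPΔ. Its level was 48.3% of that in Ago2 KO, again with no overlap. 

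Wipi2, which binds phosphoinositides and is needed to form autophagosomes, was at 27.6, 26.1, 26.0 and 24.6 TPM in Ago2 KO and at 14.2, 14.3, 14.3 and 13.8 TPM in Ago2 KO/CLIPΔ. The spread within each group was small against the gap, and the level was 54.4% of the Ago2 KO level. Slc29a4, a transporter of monoamines and nucleosides in the plasma membrane, was at 14.9, 14.0, 15.1 and 14.5 TPM in Ago2 KO and at 7.23, 6.56, 6.81 and 5.43 TPM in Ago2 KO/CLIPΔ. At 44.5% of the Ago2 KO level, it is the most distal gene of the group.

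Gna12, the alpha subunit of a heterotrimeric G protein, was at 8.87, 7.96, 8.78 and 7.71 TPM in Ago2 KO and at 4.09, 3.97, 3.75 and 3.55 TPM in Ago2 KO/CLIPΔ. The 2 sets did not overlap, and the level was 46.1% of the Ago2 KO level. Iqce, a ciliary protein of the Hedgehog pathway, was at 7.28, 7.13, 7.65 and 6.61 TPM in Ago2 KO and at 3.71, 3.91, 3.60 and 4.01 TPM in Ago2 KO/CLIPΔ, or 53.1%.

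Both remaining lowered genes were scarce. Lfng, a glycosyltransferase that modifies Notch receptors, was at 2.42, 2.56, 1.36 and 1.80 TPM in Ago2 KO and at 0.894, 0.904, 0.849 and 0.558 TPM in Ago2 KO/CLIPΔ. The groups stayed apart, although the Ago2 KO libraries varied among themselves, and the level was 39.4% of the Ago2 KO level. Amz1, a metallopeptidase, was at 0.517 to 0.765 TPM in Ago2 KO and at 0.186 to 0.411 TPM in Ago2 KO/CLIPΔ, or 41.2%. Amz1 and Gna12 overlap on opposite strands, and the strand setting of the counting is not given in the sources used here, so reads of the shared stretch may have been assigned to either.

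Eif3b and Snx8 lie on the proximal side and behaved differently. Eif3b, a subunit of the translation initiation factor eIF3 and the most abundant of the 10, was at 431, 426, 435 and 397 TPM in Ago2 KO and at 439, 444, 355 and 350 TPM in Ago2 KO/CLIPΔ. The groups overlapped, with a mean at 94.0% of Ago2 KO. Snx8, a sorting nexin of endosomes, was at 13.9, 12.8, 17.2 and 16.6 TPM in Ago2 KO and at 15.2, 15.4, 18.1 and 17.1 TPM in Ago2 KO/CLIPΔ, which also overlapped and averaged 109% of Ago2 KO. Thus the libraries of Ago2 KO/CLIPΔ were all below those of Ago2 KO for 8 of the 10 genes, a pattern that 9.62% of the genes in the whole table had. The choice of the genes used this comparison, so nothing is read from that contrast of shares.

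**Figure D1:**
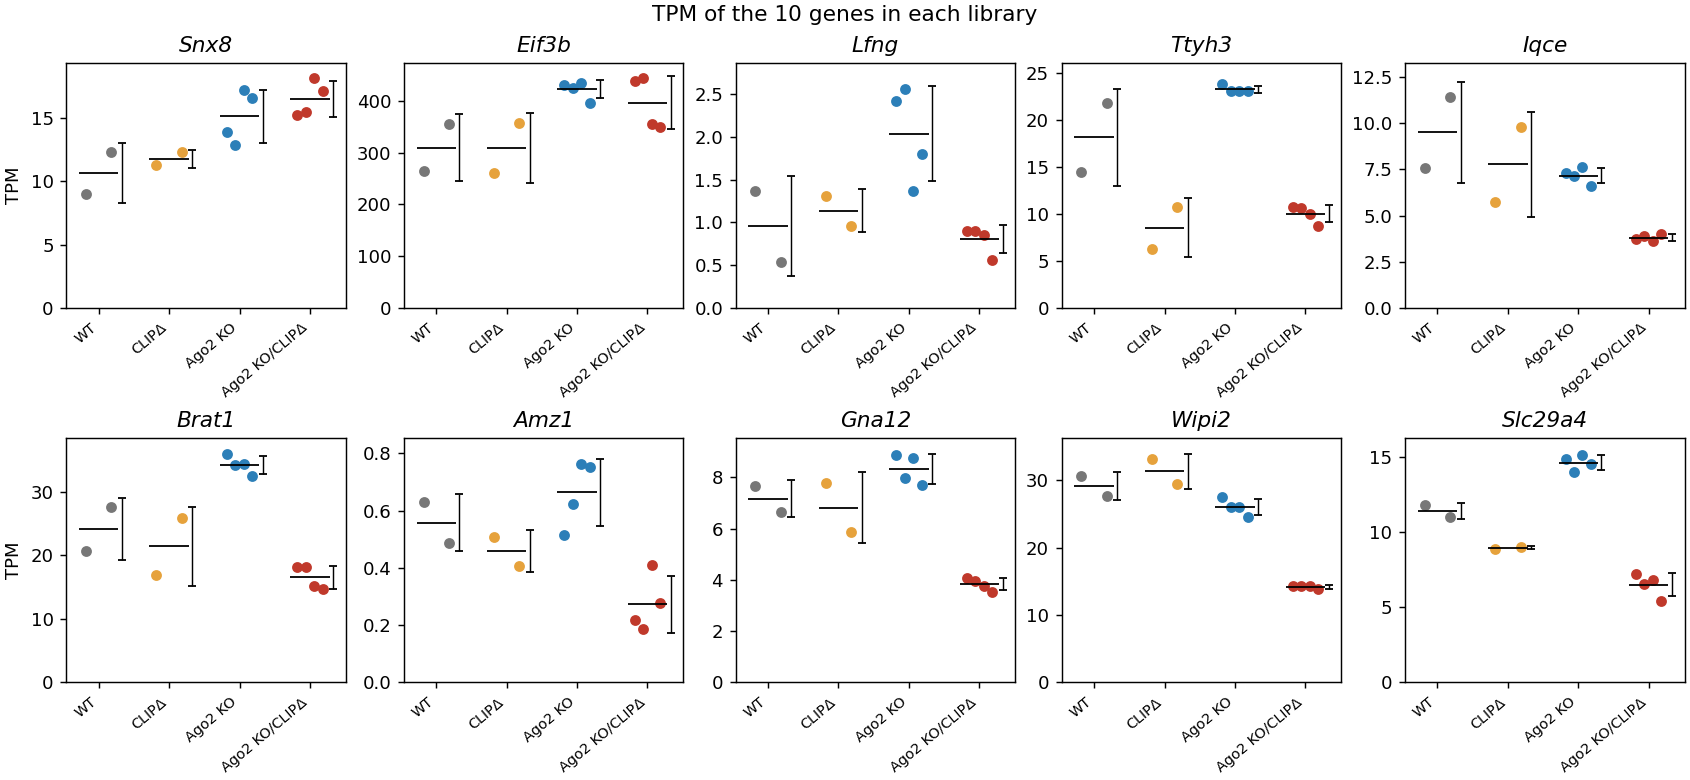
TPM of the 10 genes in each of the 12 libraries, with 1 point per library, a horizontal line at the group mean and a bar of 1 SD to its right. In Ago2 KO/CLIPΔ all 4 libraries lie below all 4 Ago2 KO libraries for 8 genes, and the groups overlap for Snx8 and Eif3b.

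On the log2 scale of TPM without a pseudocount, the difference between Ago2 KO/CLIPΔ and Ago2 KO was -1.22 ± 0.069 (SE, 4 against 4 libraries) for Ttyh3, -1.06 ± 0.085 for Brat1, -1.12 ± 0.068 for Gna12 and -0.91 ± 0.056 for Iqce. It was -0.88 ± 0.035 for Wipi2, -1.17 ± 0.092 for Slc29a4, -1.33 ± 0.27 for Lfng and -1.33 ± 0.28 for Amz1. The corresponding difference was -0.10 ± 0.099 for Eif3b and 0.13 ± 0.12 for Snx8. In the fit of log2(TPM + 1) over 11287 genes, 9 of the 10 genes passed the filter of a mean of 1 TPM, the exception being Amz1, and 7 of the 9 had a difference of -0.5 or less, as did 1.75% of all genes fitted. Their median difference was -0.83, beside -0.04 over all genes fitted.

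In the order of the reported genes, the lowered genes formed 1 unbroken stretch. From the start of Lfng to the end of Slc29a4 (chr5:140607320-142722490, GRCm38) it spanned 2.12 Mb and held 13 reported genes of the table, of which 8 are in the chosen group. The other 5 were Sdk1, Foxk1, Ap5z1, Radil and Mmd2. In all 13 genes, every Ago2 KO/CLIPΔ library was below every Ago2 KO library. Foxk1, a forkhead transcription factor, was at 57.5% of the Ago2 KO level, Ap5z1, a subunit of an endosomal adaptor complex, at 55.4%, and Radil, an effector of Rap GTPases, at 44.9%. The scarce genes Sdk1 and Mmd2 were at 72.1% and 39.9%. Sdk1 was at 0.0209 to 0.0267 TPM in Ago2 KO/CLIPΔ and 0.0273 to 0.0381 TPM in Ago2 KO. It is the only reported gene between Gna12, which ends at chr5:140830431, and Foxk1, which starts at chr5:142401497. Whether the lowering is continuous between them rests on this scarce gene alone. On the plus strand were 8 of the 13 genes, and on the minus strand 5.

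Among the 10 genes of the stretch that averaged 0.5 TPM or more over the 12 libraries, the level in Ago2 KO/CLIPΔ ranged from 39.4% to 57.5% of that in Ago2 KO, with a median of 47.2%. The SD of the log2 ratio between these genes was 0.18, against a median SE of 0.089 within a gene. The SE of single genes ran from 0.035 for Wipi2 to 0.27 for Lfng. The SD between genes was thus larger than the typical SE, so the values do not show 1 common amount. Whether the amounts spread more widely than error alone was not tested. In the libraries numbered 1 and 2, the median was 51.8%, and in those numbered 3 and 4 it was 44.6%. By single library, the median of the 10 genes was 44.3% to 49.3% of the Ago2 KO mean in the 4 Ago2 KO/CLIPΔ libraries and 94.7% to 103.7% in the 4 Ago2 KO libraries.

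**Figure D2:**
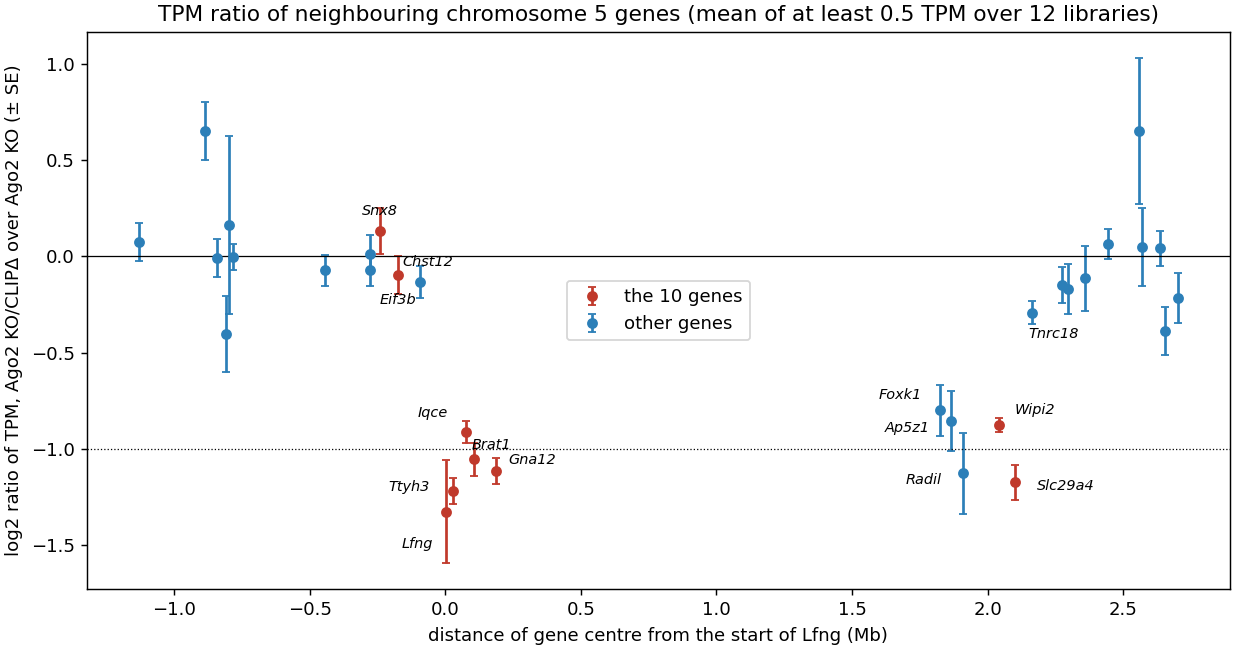
Mean log2 TPM in Ago2 KO/CLIPΔ minus Ago2 KO (± SE, 4 libraries each), by distance of the gene centre from the Lfng start. Genes that averaged 0.5 TPM or more are shown. From Lfng to Slc29a4 these differences lie between -1.33 and -0.80, and the dotted line marks -1.

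In gene order the proximal edge of the stretch was sharp, and the distal edge less so. Chst12, a carbohydrate sulfotransferase and the last gene before Lfng, ends 81.6 kb away and was at 91.6% of the Ago2 KO level, with overlapping groups. Tnrc18, on the minus strand, has its 3' end 2.17 kb beyond Slc29a4 and its start at chr5:142817662. It was at an intermediate 81.6%. All 4 Ago2 KO/CLIPΔ libraries of Tnrc18 (14.9, 16.1, 17.3 and 15.1 TPM) were below the 4 of Ago2 KO (20.8, 19.3, 18.7 and 18.9 TPM), a smaller log2 difference (-0.29) than in any gene within the stretch of at least 0.5 TPM. The 22 genes on both sides with at least 0.5 TPM ranged from 76.0% to 158.7%, with a median of 97.7%. Below that level, Elfn1, on the proximal side, was at 49.7% with no overlap between the groups.

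When all genes fitted were put in chromosomal order, the longest run of neighbours at a log2 difference of -0.5 or less between Ago2 KO/CLIPΔ and Ago2 KO was that from Lfng to Slc29a4, with 9 genes, in the comparison that chose them. The next longest had 3 genes, among them the keratin genes from Krt13 to Krt17 on chromosome 11. The run held 9 genes also at a limit of -0.3, where the next longest had 5, and of -0.7. Longer lowered runs lay elsewhere in the 2 comparisons across the Ago2 deletion, of up to 14 genes in each, and the longest in CLIPΔ minus WT had 4 genes. The other 704 fitted genes of chromosome 5 had a median difference of -0.05, and the medians of the 20 chromosomes lay between -0.09 and -0.02.

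Ratios between lowered genes within a library restate these differences free of the scaling between libraries, for pairs picked after their values had been seen. Ttyh3 over Wipi2 was 0.864 to 0.937 in Ago2 KO and 0.633 to 0.753 in Ago2 KO/CLIPΔ, without overlap, so that Ttyh3 was lower relative to Wipi2 with both deletions. Slc29a4 over Wipi2 was 0.536 to 0.590 and 0.393 to 0.508 in the same groups, again without overlap. Gna12 over Brat1 was 0.233 to 0.255 in Ago2 KO and 0.218 to 0.247 in Ago2 KO/CLIPΔ, which overlapped. In WT and CLIPΔ the first of these ratios was 0.473 and 0.785, and 0.189 and 0.363, so the genes did not keep a fixed proportion across the 4 genotypes.

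**Figure D3:**
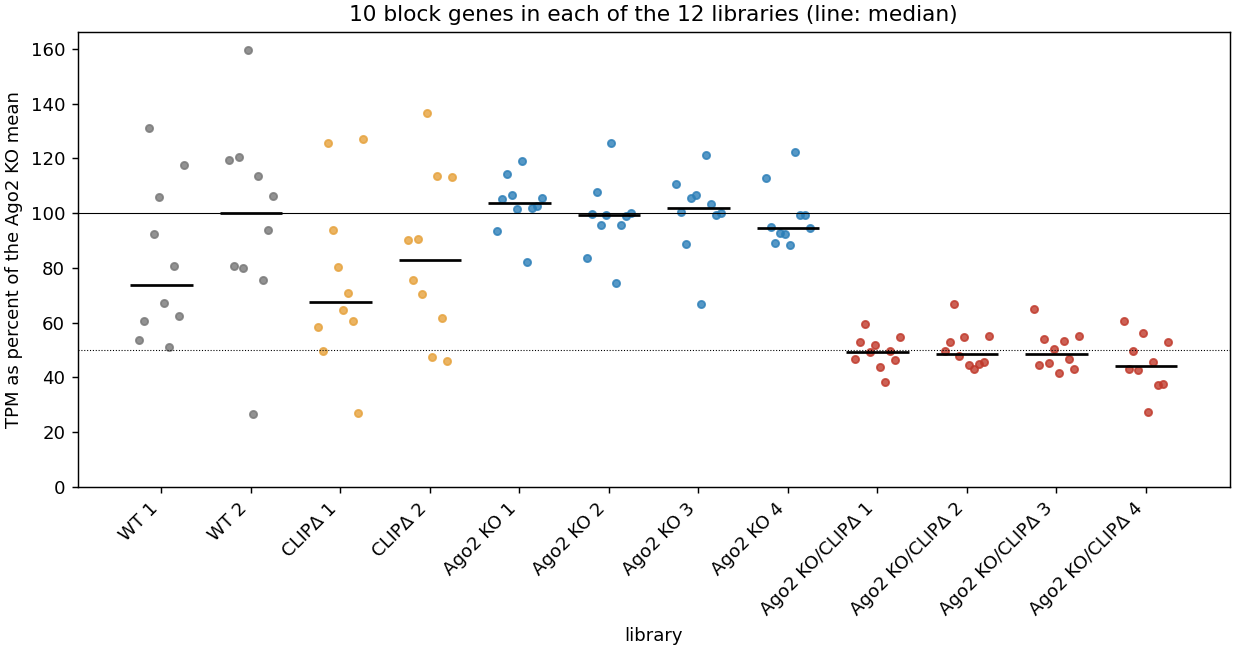
TPM of the 10 genes of the stretch with at least 0.5 TPM, as a percent of each gene's Ago2 KO mean, with 1 point per gene in each of the 12 libraries and a line at the median. The Ago2 KO/CLIPΔ libraries have medians of 44.3% to 49.3%, and in the WT and CLIPΔ libraries the genes spread from 26.5% to 159.4%.

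The difference between CLIPΔ and WT comes from 4 libraries outside the comparison that describes the choice. It was tested with limma over all 11287 genes. The genes were chosen with earlier results of these data known, so whether these 4 libraries also had a part in the choice is unknown. The spread in this test was estimated over all 12 libraries, so the p-values also draw on the 8 libraries that chose the genes. Of the 9 genes fitted, 1 passed the Benjamini-Hochberg threshold of 0.05 and fell, where 0.806% of all genes fell and 1.46% rose. This gene was Ttyh3, at 14.5 and 21.8 TPM in WT and 6.27 and 10.7 TPM in CLIPΔ. The groups did not overlap, and the log2 difference was -1.02 (SE 0.21, limma adjusted p = 0.0315). The log2 difference ranged from -1.37 to -0.68 over the alternatives. In a fit of these 4 libraries alone that ignored replicate number, Ttyh3 did not pass, so the unpaired call depends on the spread of the other 8. The limma adjusted p was 0.855 in that fit and 0.0225 with the replicate block over 12 libraries. It ranged from 0.00452 to 0.855 over the alternatives. Without replicate 1 of both groups the log2 difference was -0.96 (limma adjusted p = 0.0186), with the lone library of each group assumed to vary like the others. Marker sums also differed without overlap between CLIPΔ and WT, at 68.1 to 71.3 against 37.3 to 42.0 TPM for trophoblast, 96.0 to 110.2 against 66.1 to 73.9 TPM for neuroectoderm and 47.7 to 51.0 against 78.3 to 87.9 TPM for epiblast and mesoderm, and their part in the result was not tested.

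The other 8 genes did not pass. Wipi2 was at 30.7 and 27.7 TPM in WT and 33.2 and 29.5 TPM in CLIPΔ, with a log2 difference of 0.10 (95% interval -0.12 to 0.32, limma adjusted p = 0.783). Slc29a4 was at 11.8 and 11.02 TPM in WT and 8.88 and 9.01 TPM in CLIPΔ, where the groups did not overlap and the log2 difference was -0.32 (95% interval -0.59 to -0.04, limma adjusted p = 0.281). Both CLIPΔ libraries were below both WT libraries for 2 of the 10 genes, Ttyh3 and Slc29a4, as for 19.7% of the genes in the table. For Gna12 the difference was -0.07 (95% interval -0.38 to 0.24) and for Brat1 it was -0.18 (95% interval -0.59 to 0.23). These intervals ignore replicate number. Between libraries of the same number, Iqce went from 7.58 to 5.75 TPM and from 11.4 to 9.78 TPM. Brat1 and Amz1 were also lower in CLIPΔ at both numbers, and Wipi2 was higher at both. Lfng, Gna12, Eif3b and Snx8 went different ways at the 2 numbers. Over the 9 genes fitted the median was -0.07, beside -0.05 over all genes. Whether the deletion had different effects with and without Ago2 was not tested on these genes, which were chosen for 1 of the 2 effects.

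The 2 comparisons across the Ago2 deletion share libraries with the choice of the genes and are given as values only. The median log2 difference over all genes was -0.25 for Ago2 KO/CLIPΔ minus CLIPΔ and -0.26 for Ago2 KO minus WT. Scaling the libraries by median of ratios brought these to 0.00 and -0.00, as such scaling does by construction. After it, limma still called 5864 and 6023 of the 11287 genes, so both comparisons differ over much of the transcriptome. Differences are to be read against the median of all genes. In Ago2 KO/CLIPΔ all 4 libraries were below both CLIPΔ libraries for 5 of the 10 genes (Lfng, Iqce, Gna12, Wipi2 and Slc29a4), as for 48.9% of the table, and above them for Snx8, as for 13.9%. On the log2(TPM + 1) scale, the differences ran from -1.09 (SE 0.089) for Wipi2 and -0.83 (SE 0.18) for Iqce through -0.33 (SE 0.16) for Brat1 to 0.25 (SE 0.18) for Ttyh3, 0.37 (SE 0.15) for Eif3b and 0.45 (SE 0.15) for Snx8. The median of the 9 genes was -0.33, beside -0.25 over all genes. It includes Eif3b and Snx8, which lie outside the lowered stretch. Of the 10 genes of the stretch with at least 0.5 TPM, 7 were below CLIPΔ without overlap, as for 48.9% of the table, 0 were above and 3 overlapped. The median log2 ratio of these 10, without a pseudocount, was -0.67. Ttyh3 stood at 6.27 and 10.7 TPM in CLIPΔ, a range that holds the 4 values between 8.75 and 10.7 TPM with both deletions but for the highest of them.

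In Ago2 KO, all 4 libraries were above both WT libraries for 6 of the 10 genes (Snx8, Eif3b, Ttyh3, Brat1, Gna12 and Slc29a4), as for 15.3% of the table, and below them for Wipi2, as for 49.4%. The log2 differences were 0.50 (SE 0.16) for Brat1, 0.33 (SE 0.11) for Slc29a4, 0.37 (SE 0.18) for Ttyh3 and -0.16 (SE 0.089) for Wipi2. Of the 10 genes of the stretch with at least 0.5 TPM, 4 were above WT in this way, 2 below and 4 overlapped. By single library, their median was 73.8% of the Ago2 KO mean in WT replicate 1 and 99.99% in WT replicate 2.

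**Figure D4:**
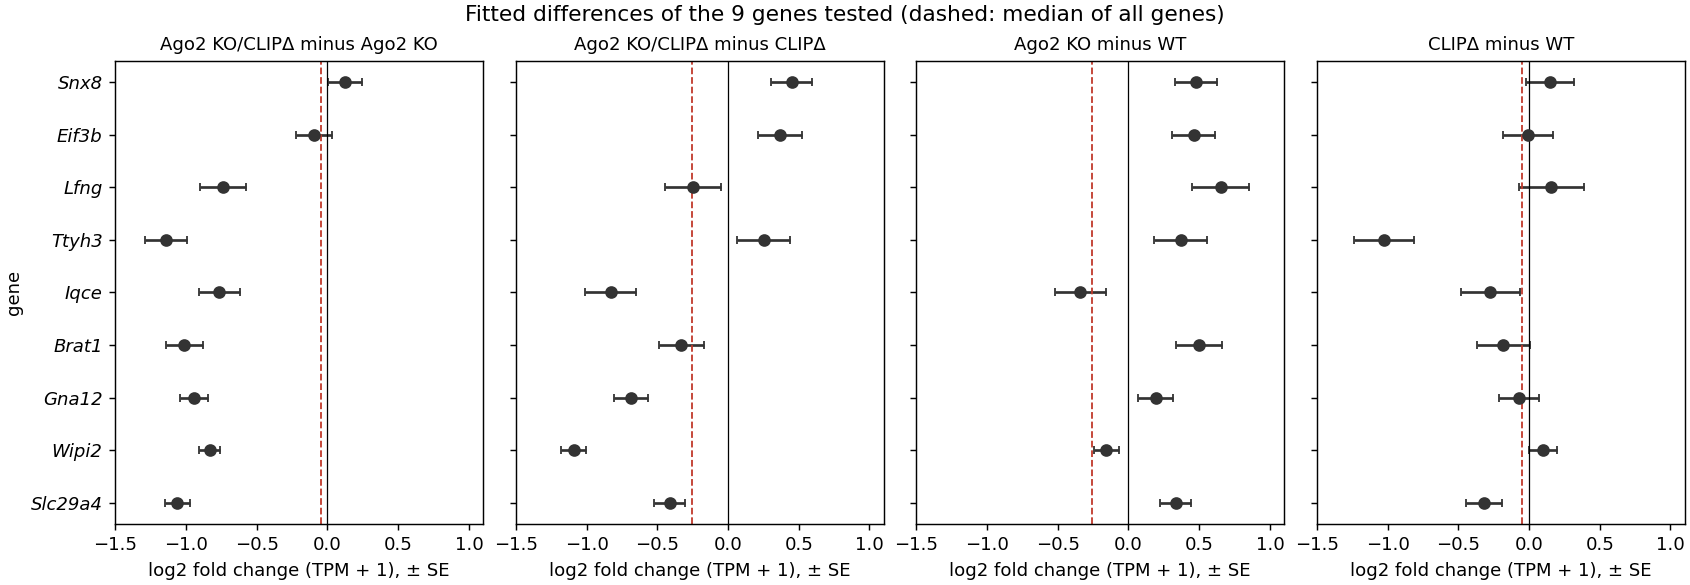
Fitted log2 differences of TPM + 1 (± SE) of the 9 genes that passed the filter, in 4 comparisons, with a dashed line at the median of all genes fitted. In Ago2 KO/CLIPΔ minus Ago2 KO, 7 genes lie between -1.14 and -0.74, while in CLIPΔ minus WT Ttyh3 alone lies beyond -0.5.

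Likeness was measured as Pearson's r over the 12 libraries with the mean of the 9 fitted genes on log2(TPM + 1), each centred on its own mean. Brat1 (r = 0.979) and Slc29a4 (r = 0.976) followed this mean most closely, and Eif3b (r = 0.276) and Snx8 (r = -0.19) least. The mean includes each of these genes, which were chosen by their levels in these libraries, so nothing is read from this order. The 5 genes outside the group with the highest r were Esx1 on chromosome X (0.923), Trpa1 on chromosome 1 (0.921), Zfp334 on chromosome 2 (0.917), Ndrg4 on chromosome 8 (0.911) and Tmcc2 on chromosome 1 (0.909). Esx1 averaged 6.93 TPM in Ago2 KO and 3.09 TPM in Ago2 KO/CLIPΔ. None of the 5 lies on chromosome 5, and the points share the 12 libraries, so these r values are a description.

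The promoters were read for the letters that the genes share there. RefSeq (GRCm38.p6) gave a promoter for 9 of the 10 genes, Iqce being the exception. In the 250 bases before the start, the GC box GGGCGG, on either strand, was found in 7 of the 9, against 32.7% of 32851 promoters. CCAAT was found in 4 (33.9% of all), TATAAA in 2 (12.4%) and CACGTG in 2 (6.02%), both strands counted. Each of the 9 held 8 to 35 CpG dinucleotides in that window, where the median of all promoters was 6. The GC box was also found in Chst12, which was not lowered, and in Sdk1, Ap5z1 and Mmd2. A promoter of Radil held it, while its other entry did not. The box was thus not particular to the 10 genes. The 32851 promoters were not matched for expression or CpG content.

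The 100 bases before the RefSeq start are shown for Eif3b, which was not lowered. They are also shown for 3 lowered genes from both ends of the stretch. Each is free of annotated exons. By the GENCODE annotation, Slc29a4 begins at chr5:142692512 and Wipi2 at chr5:142627698. The RefSeq starts used for the promoters of these genes thus lie within the annotated gene. Capitals mark GGGCGG or its reverse complement CCGCCC.
Eif3b, chr5:140419205-140419304, plus strand: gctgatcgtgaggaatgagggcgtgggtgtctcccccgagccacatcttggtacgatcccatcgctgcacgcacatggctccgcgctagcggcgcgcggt
Ttyh3, chr5:140649032-140649131, minus strand: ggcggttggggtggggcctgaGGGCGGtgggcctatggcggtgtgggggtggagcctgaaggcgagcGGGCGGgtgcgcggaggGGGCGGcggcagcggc
Gna12, chr5:140830432-140830531, minus strand: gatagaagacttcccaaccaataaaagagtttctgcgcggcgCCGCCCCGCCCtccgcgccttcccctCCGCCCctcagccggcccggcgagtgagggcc
Slc29a4, chr5:142702001-142702100, plus strand: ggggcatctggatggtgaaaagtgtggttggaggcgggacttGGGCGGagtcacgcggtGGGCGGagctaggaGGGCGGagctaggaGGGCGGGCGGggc
The box was absent from the 250 bases of Eif3b and also from those of Amz1, which was lowered. Snx8, which was also not lowered, did hold the box.

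Binding by Trim71 was read from the list of 498 CLIP peaks, sites where the protein was crosslinked to RNA in the FLAG-Trim71 mESCs. The list holds 0 peaks in the 10 genes. It has far fewer peaks than the RNA-seq table has genes (15034), so a set of 10 genes would often hold none. Nothing is read from this count. Within the lowered stretch, 2 peaks lay in an intron of Sdk1, with 1938 and 9408 reads, and beyond it 1 lay in the 5' untranslated region of Tnrc18, with 1872 reads. The peaks were common to both replicates, so no spread between replicates can be given for them.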

How the data were processed

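RNA-seq covered 12 mESC libraries. According to the methods of the study, reads were mapped to mm10 with HISAT2 2.1.0, counted by HTSeq on 1 transcript per gene, the longest, and converted by the authors to TPM. The columns of CLIPΔ carry the abbreviation d3, read here as this deletion because no other genotype remained. CLIP peaks are deposited with their read counts. The small-RNA table lists no miRNA annotated in or beside the stretch and was not used. An item of the stretch is not reported here.

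The test was limma 3.58.1 (R 4.3.3) on log2(TPM + 1) over the 11287 genes that averaged 1 TPM or more, with 4 group means, 12 libraries and Benjamini-Hochberg adjustment at 0.05, tested on simulated data. Positions came from GENCODE, for 14964 genes. The genes named are the 10 genes, those between and beside them, Ago2, Trim71 and the 5 most alike. The genes and lists were chosen with earlier results of these data known, and the comparison of Ago2 KO/CLIPΔ with Ago2 KO was added after the tables had been read, since the planned one was Ago2 KO minus WT.

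Same-numbered Ago2 KO and Ago2 KO/CLIPΔ libraries deviated together (r of 0.32 to 0.43 in 4 pairs), as did other numbers within 1 and 2 or within 3 and 4 (0.33 to 0.47). For WT and CLIPΔ the r was 0.715 for same numbers and -0.715 for the others, from 2 pairs, too few to settle whether the libraries were paired. The labels name no pairs, and the main test and its intervals are unpaired. Alternatives were the pseudocount, filter, scaling, replicate block, libraries in the fit and each library left out.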

Additional observations from a re-analysis of the deposited data

Results flagged for a closer look

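In Ago2 KO/CLIPΔ the lowest Lfng library was at 0.558 TPM, far below the others. In Ago2 KO the highest Ttyh3 library was at 23.8 TPM, above 3 libraries that lay between 23.01 and 23.09 TPM. Of 30 sets of 4 libraries examined, 2 stood out in this way, and chance gives about 1 in 20.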

How the results depend on the processing

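TPM without read numbers and 2 WT and 2 CLIPΔ libraries limit what can be told of small differences and scarce genes. The signs of the 7 lowered genes fitted held in Ago2 KO/CLIPΔ minus Ago2 KO under all alternatives run, and the run of 9 genes held at both other limits. The causes of the following shifts were not tested.

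For Ago2 KO/CLIPΔ minus Ago2 KO, limma called 99 genes (68 lower, 31 higher). With the replicate block this was 180, with these 2 groups alone 353, with both 804, and without WT and CLIPΔ replicate 1 together 357. With only replicates 1 and 2 of both Ago2 KO groups limma called 0 (1441 at an unadjusted p under 0.05), with only replicates 3 and 4 again 0 (1368), and with 1 library left out 21 to 68, the lowest without Ago2 KO replicate 1. The median difference of the 9 genes was -0.83, and -1.05 with a pseudocount of 0.1 TPM, both for these genes and for all 10 without the filter. 

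For Ago2 KO/CLIPΔ minus CLIPΔ, 6201 genes were called (4755 lower, 1446 higher), 5864 after median-of-ratios scaling (2917 lower, 2947 higher), 4065 with only replicates 3 and 4, and 3648 to 6200 with 1 library left out, the lowest without CLIPΔ replicate 1. The median of the 9 genes was -0.33. It was -0.46 with a pseudocount of 0.1 TPM, the same over all 10 without the filter, -0.10 after the scaling, -0.20 with only replicates 1 and 2, -0.46 with only 3 and 4, -0.42 without WT and CLIPΔ replicate 1, -0.20 with the block in these 2 groups alone, and -0.42 to -0.28 with 1 library left out.

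For Ago2 KO minus WT, 6364 were called (4785 lower, 1579 higher), 6023 after the scaling (2994 lower, 3029 higher), 4164 with the block in these 2 groups alone, and 4150 to 6453 with 1 library left out, the lowest without WT replicate 1. The median of the 9 genes was 0.37, and 0.65 after the scaling, 0.27 without WT and CLIPΔ replicate 1, and 0.27 to 0.37 with 1 library left out. 

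For CLIPΔ minus WT, 256 were called, 510 with no filter, 391 with no filter and a pseudocount of 0.1 TPM, 111 without replicate 1 of both groups, and 101 to 390 with 1 library left out, the lowest without CLIPΔ replicate 1. With these 2 groups alone limma called 0 (604 at an unadjusted p under 0.05), and 333 when the block was added. With the replicate block in the fit of 12 libraries, none of the 9 genes changed its call in this comparison. The median of the 9 genes was -0.07, and -0.23 to 0.040 with 1 library left out.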
